A study of Homo sapiens with 12 samples.

Results

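HepG2 cells moved to high-glucose DMEM (HGDMEM) were compared with HepG2 cells kept in EMEM, by 3′ mRNA sequencing. HepG2, an established line from a human liver tumour with many hepatocyte functions, is wild type per the labels. The comparison takes the 3 HGDMEM and the 3 EMEM libraries, 6 of the 12 in the series, and every one of the 10945 rows of the count table that carries a gene symbol. Libraries were chosen by the medium and replicate number in their names and not by any measured value. The stock was grown in EMEM with serum, pyruvate and glutamine, seeded in EMEM, and given its final medium after 24 h, so the EMEM cells stayed in the medium they came from while the HGDMEM cells changed medium. Both groups had 10% heat-inactivated serum, a change of medium at 48 h and a harvest at 96 h. The other libraries, 3 of low-glucose DMEM (LGDMEM) and 3 of Plasmax, a medium modelled on human plasma, shared the estimate of spread and are given for levels only. One line was used, and whether libraries of 1 medium stem from independent cultures is not in the labels. The p-values therefore speak only for the spread among these libraries, and that spread may be technical.

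EMEM and DMEM are both classical culture media. As background, DMEM was derived from the same basal recipe with more amino acids and vitamins and with added ferric nitrate, and its high-glucose form holds several times more glucose than EMEM, although the labels state no composition. A liver cell that senses more glucose is known to induce TXNIP and lipid-handling genes through the paired transcription factors MondoA or ChREBP and MLX. Other regulators named here read the mechanical and serum state of a cell. YAP, with its DNA-binding partner TEAD, and SRF, with its actin-sensing cofactors, switch on matricellular proteins, tropomyosins, actins and other cytoskeletal genes when cells spread, pull on their substrate or receive serum signals.

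The 6 libraries held between 4157693 and 5840057 counts on rows with a symbol. The 10 hepatocyte-like markers checked, among them ALB, AFP, APOA1, APOB, TTR, SERPINA1, TF, FGB and HNF4A, were all present, with summed levels of 24359 to 26740.1 CPM (counts scaled to a common library total) in HGDMEM and 22431 to 22966 CPM in EMEM. Of 10 leukocyte markers 4 were in the table, summing to 2843 to 3274 and 2792 to 3485 CPM, and LYZ made 95.3% of that. Of 11 endothelial and stromal markers 2 were in the table, summing to 4.30 to 9.73 and 5.83 to 9.79 CPM, and LYVE1 had no count in HGDMEM 3 and in EMEM 1. Of 8 bile duct markers 5 were in the table, summing to 604 to 669.9 and 629.8 to 728 CPM. Mitochondrially encoded mRNA took 10.3% to 11.9% of the counts in HGDMEM and 10.2% to 12.3% in EMEM.

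Medium and replicate number were both visible in the arrangement of these libraries. The first principal component, with 24.7% of the variance, placed HGDMEM 1, 2 and 3 at 16.0, 28.3 and 13.6 and EMEM 1, 2 and 3 at −9.23, −18.6 and −30.1. The second, with 21.2%, placed the libraries numbered 1 at 23.3 and 21.8, those numbered 2 at −22.2 and −26.4, and those numbered 3 at 1.53 and 1.86. The component that separated the media and the one ordered by replicate number thus had similar shares. The first also held spread within each medium, so these are not the shares of medium and replicate number themselves. The labels do not say what the number stands for.

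**Figure D1:**
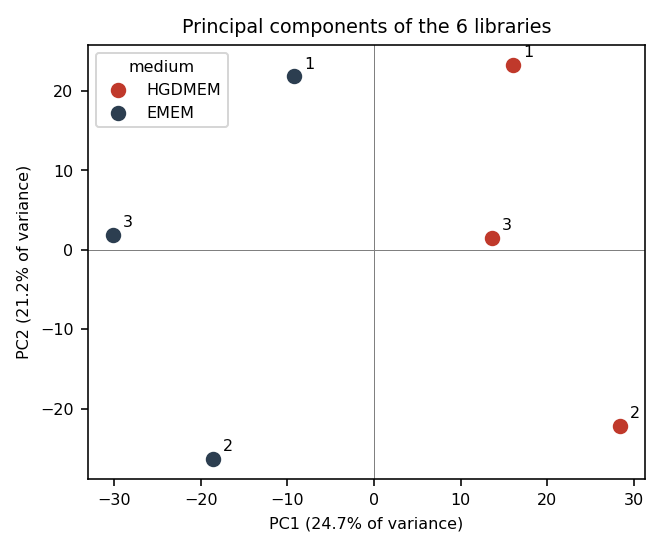
Principal component analysis of log2 CPM in the 6 libraries, with PC1 (24.7% of variance) on the x axis and PC2 (21.2%) on the y axis; each point is a library, coloured by medium and marked with its replicate number. The media separate along PC1, and libraries with the same number lie at nearly the same height on PC2.

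Few genes differed between the media by the main test, which took its spread from all 12 libraries without a block for replicate number. Of 10945 genes 18 were called (0.164% of those tested), 4 higher and 14 lower in HGDMEM, at an adjusted p under 0.05 in the quasi-likelihood test of edgeR (Benjamini-Hochberg). The 4 make 0.0365% and the 14 make 0.128% of the genes tested. Differences are given below as log2FC, the log2 of HGDMEM over EMEM with its standard error after ±, and CPM values are listed in the order of replicates 1, 2 and 3. The median log2 fold change over all genes was 0.0015. At an unadjusted p under 0.05 there were 830 genes (7.58%), 324 higher (2.96%) and 506 lower (4.62%). All 18 called genes had a mean of at least 10 CPM and none overlapped between its 3 HGDMEM and 3 EMEM libraries, but 1641 of all genes (15%) did not overlap either, 773 with all HGDMEM libraries above (7.06%) and 868 below (7.93%). In bulk RNA a lower value can mean fewer cells of a kind or less RNA per cell, which cannot be told apart. The number of calls depended on the fit. Without 1 of the 6 at a time, in fits with fewer samples, it was between 1 and 7. The fit to the 6 libraries alone kept all 18 and gained 25. With the replicate number as a block on those 6 it kept all 18 and gained 55. Without LGDMEM 3, a library outside the comparison, 27 were gained. CPLX2 was the single gene called under each of the 16 alternative settings.

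**Figure D2:**
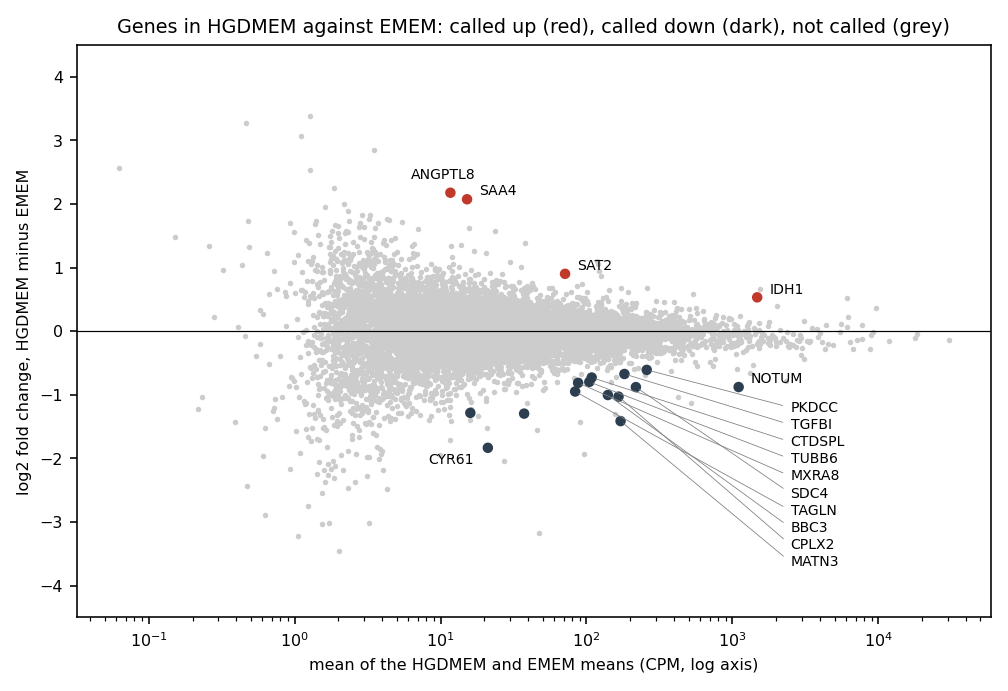
Log2 fold change (HGDMEM minus EMEM, y axis) against the mean CPM of the 2 media (x axis, log scale) for all 10945 genes. The 4 genes called up are red and the 14 called down are dark, and all lie at 10 CPM or more.

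The genes called up were a lipid-regulating hormone, an apolipoprotein and 2 metabolic enzymes. ANGPTL8 encodes a liver-secreted protein that restrains lipoprotein lipase and is known to be induced by feeding and insulin. Its libraries read 18.2, 12.9 and 26.4 CPM in HGDMEM and 2.67, 3.38 and 6.52 CPM in EMEM. Every HGDMEM library was above every EMEM library, with a mean of 19.2 ± 6.82 against 4.19 ± 2.05 CPM (mean ± SD, n = 3; log2FC 2.18 ± 0.39, adjusted p = 0.0284). SAA4, the constitutively made serum amyloid A that travels on high-density lipoprotein, read 31.9, 24.7 and 17.1 CPM in HGDMEM and 6.07, 5.34 and 6.10 CPM in EMEM. The EMEM libraries were close together and the HGDMEM ones spread widely, yet they did not meet (log2FC 2.07 ± 0.33, adjusted p = 0.0192). SAA4 belongs to a family of similar neighbouring genes, so reads assigned to it are less certain.

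SAT2, an acetyltransferase related to the polyamine-acetylating enzyme SAT1, read 82.9, 91.4 and 105 CPM in HGDMEM and 41.5, 52.2 and 55.3 CPM in EMEM. All HGDMEM libraries were higher (log2FC 0.90 ± 0.15, adjusted p = 0.0192). IDH1, the cytosolic NADP-dependent isocitrate dehydrogenase that supplies NADPH for lipid synthesis and redox balance, read 1669, 1838 and 1732 CPM in HGDMEM and 1189, 1173 and 1261 CPM in EMEM. Its difference was the smallest in size among the 18 called genes, but its libraries were tight within each medium (log2FC 0.53 ± 0.11, adjusted p = 0.0495). None of the 4 kept its call in every fit without 1 of the 6 libraries, and those fits had fewer samples. When each of the 6 libraries was left out in turn the adjusted p ran from 0.0206 to 0.0908 for SAA4, 0.0469 to 0.167 for ANGPTL8, 0.0564 to 0.129 for SAT2 and 0.119 to 0.205 for IDH1. SAA4 stayed called without HGDMEM 3 alone and ANGPTL8 without EMEM 3 alone, while SAT2 and IDH1 were called in none of the 6. ANGPTL8 also missed the threshold with limma voom (adjusted p = 0.137).

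Among the 14 genes called down were MATN3, CYR61, TGFBI, NOTUM, PKDCC, SDC4 and MXRA8, which encode secreted, matrix or cell surface proteins, a grouping made after their values were seen. MATN3 (matrilin 3), an adaptor protein of the extracellular matrix, read 83.8, 89.1 and 108 CPM in HGDMEM and 225, 282 and 240.0 CPM in EMEM. Its HGDMEM libraries stood far below the EMEM ones, at 93.5 ± 12.5 against 249 ± 29.7 CPM (log2FC −1.41 ± 0.20, adjusted p = 0.009). CYR61, also named CCN1, is a matricellular protein and a classic target of YAP and SRF, and read 10.1, 7.12 and 10.6 CPM in HGDMEM and 37.4, 39.5 and 21.9 CPM in EMEM. It had the largest fall of the 18 (log2FC −1.83 ± 0.36, adjusted p = 0.0459), although EMEM 3 was lower than the other EMEM libraries. TGFBI, a matrix protein induced by TGF-beta, read 154, 128 and 139 CPM in HGDMEM and 211, 230.3 and 229 CPM in EMEM (log2FC −0.67 ± 0.13, adjusted p = 0.0401).

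NOTUM is a secreted enzyme that strips the lipid from Wnt ligands and is itself a target of Wnt signalling. It read 788, 845 and 698 CPM in HGDMEM and 1451, 1681 and 1152 CPM in EMEM, with the spread widest in EMEM (log2FC −0.88 ± 0.15, adjusted p = 0.0192). PKDCC, a secreted tyrosine kinase that acts on matrix proteins, read 230.1, 194 and 191 CPM in HGDMEM and 286, 324 and 328 CPM in EMEM (log2FC −0.61 ± 0.12, adjusted p = 0.0472). With the replicate number as a block in the fit to all 12 libraries its adjusted p was 0.0527, and it was the single one of the 18 genes to lose its call there, while the block on the 6 libraries of these media gave 0.0264.

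SDC4 (syndecan 4), a heparan sulphate proteoglycan of focal adhesions, read 164, 136 and 160.1 CPM in HGDMEM and 303, 233 and 311 CPM in EMEM (log2FC −0.88 ± 0.15, adjusted p = 0.0203). MXRA8, an adhesion molecule of the immunoglobulin family, read 65.6, 61.4 and 63.7 CPM in HGDMEM and 115, 111 and 109 CPM in EMEM. In it the libraries of each medium were nearly equal and the media were clearly apart (log2FC −0.81 ± 0.14, adjusted p = 0.0192). Leaving out 1 of the 6 libraries at a time gave an adjusted p of 0.0182 to 0.0718 for MATN3, 0.038 to 0.146 for SDC4, 0.0243 to 0.142 for NOTUM, 0.06 to 0.106 for MXRA8, 0.0718 to 0.197 for TGFBI, 0.06 to 0.207 for CYR61 and 0.0672 to 0.219 for PKDCC. MATN3 lost its call without HGDMEM 1 or HGDMEM 2. SDC4 held it without EMEM 2 alone and NOTUM without EMEM 3 alone, while MXRA8, TGFBI, CYR61 and PKDCC were called in none of the 6. TGFBI, CYR61 and PKDCC also lost their call with scaling to library size alone (adjusted p = 0.0556, 0.063 and 0.07), and CYR61 with limma voom (adjusted p = 0.0749).

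Others called down act inside the cell. CPLX2 (complexin 2), which binds SNARE proteins and regulates vesicle fusion, had the smallest p of all genes. It read 112, 113 and 102 CPM in HGDMEM and 249, 203 and 216 CPM in EMEM, so the HGDMEM libraries lay together at 2.04-fold below EMEM (log2FC −1.03 ± 0.13, adjusted p = 0.00194). Its adjusted p without any 1 library ran from 0.00478 to 0.0206. BBC3, the p53-induced cell death protein PUMA, read 79.1, 98.0 and 103 CPM in HGDMEM and 143, 225 and 192 CPM in EMEM (log2FC −1.003 ± 0.18, adjusted p = 0.0293). CTDSPL, a phosphatase of the small C-terminal domain family, read 78.0, 82.4 and 84.8 CPM in HGDMEM and 119.7, 147 and 139.7 CPM in EMEM (log2FC −0.73 ± 0.13, adjusted p = 0.0293).

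TAGLN (transgelin), an actin-binding protein and an SRF target, read 68.1, 52.5 and 50.8 CPM in HGDMEM and 99.5, 126 and 105 CPM in EMEM. All HGDMEM libraries were lower (log2FC −0.95 ± 0.18, adjusted p = 0.0401). TUBB6, a beta-tubulin isotype, read 72.6, 71.5 and 85.2 CPM in HGDMEM and 117, 151 and 130.4 CPM in EMEM (log2FC −0.80 ± 0.13, adjusted p = 0.0192), and tubulin genes are similar in their coding parts, so its counts are less certain. Leaving out 1 library at a time gave adjusted p values of 0.0182 to 0.118 for TUBB6, 0.0182 to 0.183 for BBC3, 0.0421 to 0.167 for CTDSPL and 0.0672 to 0.194 for TAGLN. TUBB6 kept its call without HGDMEM 3 or without EMEM 1, BBC3 and CTDSPL without EMEM 1 alone and TAGLN in none of the 6. With library size alone TAGLN was lost (adjusted p = 0.063).

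**Figure D3:**
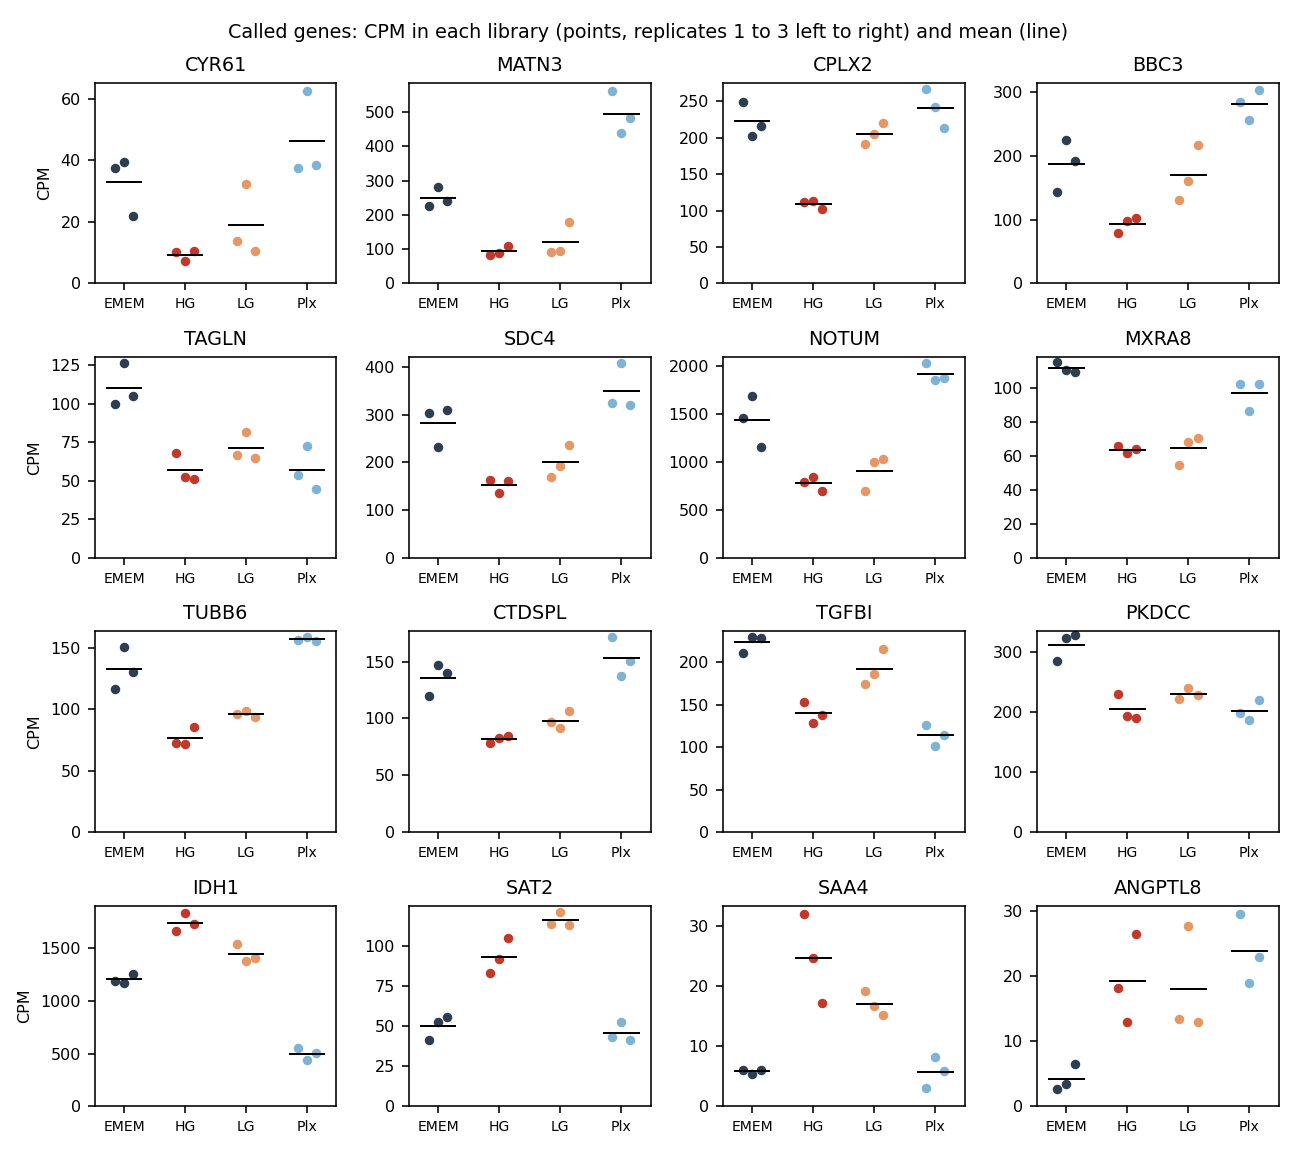
CPM (y axis, from 0) of 16 of the 18 called genes in every library of EMEM, HGDMEM (HG), LGDMEM (LG) and Plasmax (Plx), with 1 panel a gene, points for replicates 1 to 3 and a line at the mean. In each panel the 3 HGDMEM points lie entirely above or entirely below the 3 EMEM points, and SAT2 is the single gene shown whose LGDMEM mean lies outside the range between the EMEM and HGDMEM means.

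Among the gene lists, the one of YAP and SRF targets and cytoskeletal genes had a negative median and 3 called members. Of 28 measured members 3 were called down and none up (CYR61, TAGLN and TUBB6), where 0.128% of all genes were called down. Of the 28, 26 had a negative and 2 a positive log2 fold change, with a median of −0.35 beside 0.0015 over all genes. In 10 members all HGDMEM libraries were below all EMEM libraries, where 7.93% of all genes did so, and in none were they above. The median stayed negative in the 16 alternatives, between −0.42 and −0.25. Between LGDMEM and EMEM, a comparison with the same EMEM libraries, the list's median was −0.23, with 0 members called. The median was thus negative against EMEM in both forms of DMEM. Since both comparisons use the same EMEM libraries, the 2 medians are not independent. The list was drawn up with earlier results of these data known.

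Its members varied in size of difference. ANKRD1, a nuclear ankyrin repeat protein induced by YAP, read 54.4, 43.0 and 50.3 CPM in HGDMEM and 114, 148 and 134 CPM in EMEM, which do not overlap but fell short of the threshold (log2FC −1.42 ± 0.30, adjusted p = 0.0552). With the replicate block on all 12 libraries ANKRD1 was called (adjusted p = 0.0434). TPM4, a tropomyosin that stabilises actin filaments, read 450.3, 449 and 483 CPM in HGDMEM and 666, 680.5 and 683 CPM in EMEM and fell just short of the threshold (log2FC −0.55 ± 0.11, adjusted p = 0.0502). It was called in 6 of the 16 alternatives. ACTG1, the cytoplasmic gamma actin, noticed after its values were seen, read 2783, 2449.9 and 2687 CPM in HGDMEM and 3427, 3516 and 3776 CPM in EMEM (log2FC −0.44 ± 0.10, adjusted p = 0.0995). TAGLN2 at −0.96, AMOTL2 at −0.98, FLNA at −0.62 and TPM1 at −0.49 were the rest of the 10, none of them called. CTGF, a relative of CYR61, was 142, 127 and 171 CPM in HGDMEM and 150.00, 186 and 194 CPM in EMEM, with overlap (log2FC −0.27 ± 0.17, adjusted p = 0.78). ACTB, the beta actin, differed by −0.012 (SE 0.20), KRT8 by −0.073, and SRF itself by −0.13 (SE 0.13). Reads of actin and tubulin genes can be shared with pseudogenes, which makes these levels less certain.

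**Figure D4:**
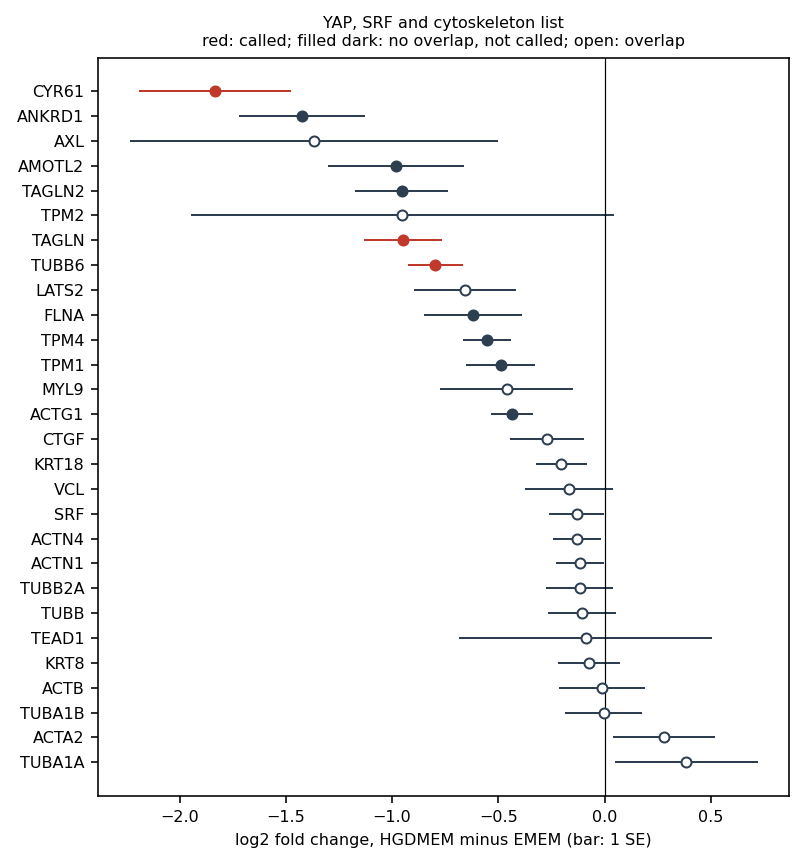
Log2 fold change (HGDMEM minus EMEM, x axis) of the 28 measured YAP, SRF and cytoskeleton genes, with bars of 1 SE. The 3 called genes are red, filled dark points are the 7 further genes whose libraries do not overlap, and open points overlap; 26 of the 28 points lie below 0.

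Promoter sequences of list members are shown because several of these genes share short motifs that the textbook factors recognise. The sequences are the 250 bases before the RefSeq start, from the GRCh38.p14 build, 5′ to 3′ on the gene's strand, and capitals mark the motif. The CArG box is the SRF motif. CATTCC, read on either strand, is the core of the TEAD motif.
TUBB6, chr18:12307419-12307668, plus strand: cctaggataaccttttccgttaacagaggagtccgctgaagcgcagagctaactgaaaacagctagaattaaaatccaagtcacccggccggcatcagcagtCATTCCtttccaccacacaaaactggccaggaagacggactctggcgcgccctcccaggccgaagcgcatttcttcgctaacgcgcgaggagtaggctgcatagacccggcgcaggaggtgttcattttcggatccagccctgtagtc
ANKRD1, chr10:90921088-90921337, minus strand: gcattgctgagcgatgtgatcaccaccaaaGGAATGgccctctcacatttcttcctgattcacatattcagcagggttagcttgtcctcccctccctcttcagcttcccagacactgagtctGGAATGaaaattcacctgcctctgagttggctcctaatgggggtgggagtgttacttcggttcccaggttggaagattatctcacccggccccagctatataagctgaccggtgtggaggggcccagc
TPM4, chr19:16067288-16067537, plus strand: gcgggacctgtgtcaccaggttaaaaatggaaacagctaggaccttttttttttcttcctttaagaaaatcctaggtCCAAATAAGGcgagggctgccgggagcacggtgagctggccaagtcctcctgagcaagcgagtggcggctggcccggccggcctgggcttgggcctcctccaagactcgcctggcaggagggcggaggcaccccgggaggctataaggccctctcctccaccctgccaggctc
ACTG1, chr17:81512800-81513049, minus strand: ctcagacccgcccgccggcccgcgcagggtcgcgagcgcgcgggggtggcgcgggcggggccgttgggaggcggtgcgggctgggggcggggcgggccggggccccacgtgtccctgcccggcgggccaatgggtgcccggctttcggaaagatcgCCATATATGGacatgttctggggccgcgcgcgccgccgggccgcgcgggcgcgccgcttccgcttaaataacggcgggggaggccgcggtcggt

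TUBB6 has 2 RefSeq starts and TPM4 has 3, and in each gene the motif is in the window of 1 start. Of the 28 list members 23 matched a promoter entry, with 38 windows. A CATTCC was in a window of 8 of them (CTGF, ANKRD1, AMOTL2, AXL, ACTA2, ACTN1, VCL and TUBB6) and a CArG box in 5 (ACTG1, ACTN1, TPM4, SRF and FLNA). Over all 35116 windows of this length CATTCC was in 11.9% and a CArG box in 1.16%. These are shares of single windows, while a gene above counted if any of its windows held the motif, so they are not like measures. The list was also made up in part of known targets of these factors, so its motif counts test nothing. Of the 18 called genes 12 matched, with 17 windows. None of these windows held a CArG box, and CATTCC was in MATN3 and TUBB6. CYR61 and TAGLN, called and also list members, had no promoter entry, so their promoters were not searched. The genes with a motif included ones with overlapping libraries (VCL, ACTN1, SRF) as well as ANKRD1 and TPM4. A match describes letters and not binding.

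Neighbouring lists held single called genes or none, where 0.164% of all genes were called. Mesenchymal and matrix genes had 0 up and 1 down of 14 called, TGFBI being the one. Their median log2 fold change was −0.21, and −0.22 between LGDMEM and EMEM. In 6 of the 14 all HGDMEM libraries were below (7.93% of all genes), among them the laminin chain LAMB1 at 85.7, 88.6 and 93.3 against 97.3, 154 and 122 CPM (log2FC −0.48 ± 0.15, adjusted p = 0.357). Immediate early and ERK feedback genes had none called of 23 and a median of −0.14. KLF6, an early response transcription factor, read 19.1, 30.95 and 26.6 CPM in HGDMEM and 47.3, 53.4 and 38.7 CPM in EMEM (log2FC −0.86 ± 0.22, adjusted p = 0.168). AREG (amphiregulin), a ligand of the EGF receptor, read 8.63, 10.3 and 6.77 CPM in HGDMEM and 14.3, 19.9 and 14.3 CPM in EMEM (log2FC −0.92 ± 0.28, adjusted p = 0.324). For both the media did not overlap and the test was not passed. The p53 list had 0 up and 1 down of 27 called, BBC3, and a median of −0.0073, and the next member by p was ZMAT3 (0.43, adjusted p = 0.651). The acute phase list had 1 up and 0 down of 16 called, and a median of −0.14. Its call was SAA4, which is made constitutively, and its members CRP, SAA1 and SAA2 were not measured. FGB (fibrinogen beta chain) read 915, 925 and 949 against 1201, 1107 and 1265 CPM (log2FC −0.36 ± 0.11, adjusted p = 0.334).

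In the list of targets of the glucose-sensing factors 0 of 14 measured members were called, where 0.164% of all genes were. At that share a list of 14 is likely to hold none. No member had an adjusted p below that of HBP1 (0.557), and the median was 0.07. TXNIP, an arrestin-like protein that limits glucose uptake and is the best known of these targets, read 43.9, 30.1 and 51.2 CPM in HGDMEM and 57.0, 20.3 and 34.1 CPM in EMEM. The media overlapped (log2FC 0.18 ± 0.30, adjusted p = 0.953), and in LGDMEM they read 1.01, 5.504 and 4.53 CPM. HGDMEM was above LGDMEM (log2 fold change 3.44, SE 0.39, adjusted p = 0.00057), a comparison in which 0.064% of all genes were called. The related ARRDC4 had 4 counts over the HGDMEM libraries and 1 over the EMEM libraries, too few for a fold. HBP1 was at −0.78 with no overlap and GPD1, glycerol-3-phosphate dehydrogenase, at 0.38 (adjusted p = 0.701). ANGPTL8, called up, is a lipid-handling gene outside this list, and it differed between HGDMEM and LGDMEM by 0.076 (SE 0.35, adjusted p = 0.98). The TXNIP promoter is shown for its carbohydrate response element, the paired motif bound by MondoA or ChREBP with MLX, in capitals, and it is in 1 of the gene's 2 windows.
TXNIP, chr1:145996580-145996829, minus strand: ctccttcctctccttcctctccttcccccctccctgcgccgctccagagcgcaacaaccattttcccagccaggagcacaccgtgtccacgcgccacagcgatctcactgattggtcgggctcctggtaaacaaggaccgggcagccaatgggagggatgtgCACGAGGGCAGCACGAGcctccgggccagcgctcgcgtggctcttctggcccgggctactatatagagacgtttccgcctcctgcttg
The element, searched as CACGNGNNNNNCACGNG on both strands, was in 0.0456% of all 35116 windows and in none of the 17 windows of called genes, ANGPTL8 included.

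Metabolic lists were likewise without called members, where 0.164% of all genes were called. The members of smallest p are given as values, each as its log2 fold change. Glycolysis and lactate export had 0 of 22 called and a median of −0.0026, with GAPDH (−0.78, adjusted p = 0.389) and SLC2A3 (−0.57, adjusted p = 0.389). SLC2A3, a high-affinity glucose transporter, did not overlap at 178, 139.7 and 227 against 250.005, 299 and 259 CPM. GAPDH spread from 1025 to 2711 CPM among the HGDMEM libraries and has many pseudogenes. Gluconeogenesis, glycogen and fructose genes had 0 of 13 called (median 0.029), with AKR1B1 (0.16, adjusted p = 0.829). The pentose phosphate pathway had 0 of 9 (median −0.035), with TKT (−0.30, adjusted p = 0.756) and PGLS (−0.71, adjusted p = 0.796).

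Cholesterol synthesis and uptake had 0 of 23 called and a median of 0.14, with 18 members positive and 5 negative. In 1 member all HGDMEM libraries were below (7.93% of all genes). In 5 members all HGDMEM libraries were above (7.06% of all genes), including MVK (mevalonate kinase) at 58.7, 55.0 and 49.7 against 38.4, 33.1 and 31.8 CPM (log2FC 0.66 ± 0.27, adjusted p = 0.511). Fatty acid and triglyceride synthesis had 0 of 20 called (median 0.071). In 4 members all HGDMEM libraries were above (7.06% of all genes) and in 1 they were below (7.93% of all genes). Its smallest p values belonged to ACSS2 (0.51, adjusted p = 0.664) and AGPAT2 (1.40, adjusted p = 0.699), both with overlap. Fatty acid oxidation and PPARA targets had 0 of 18 (median 0.029), with HADHB (0.24, adjusted p = 0.69) and ACADM (−0.45, adjusted p = 0.69). Insulin and FOXO responsive genes had 0 of 18 (median −0.12). Of these IGFBP2, a binding protein for insulin-like growth factors, read 0.938, 1.66 and 1.27 CPM in HGDMEM and 3.88, 7.83 and 10.3 CPM in EMEM (log2FC −2.49 ± 0.53, adjusted p = 0.0593), with means under 10 CPM in both media. With the replicate block it was called on all 12 libraries (adjusted p = 0.0277) and not on the 6 of these media (adjusted p = 0.091), nor with limma voom (adjusted p = 0.357). IGF2, an insulin-like growth factor, read 6.00, 6.46 and 12.7 CPM in HGDMEM and 1.94, 5.16 and 0.210 CPM in EMEM (log2FC 1.71 ± 0.60, adjusted p = 0.43).

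No measured member of the iron lists passed the main test, where 0.164% of all genes did. At that share lists of this size are likely to hold no call. Uptake and intracellular handling had 0 of 16 called (median 0.083), storage, export and the BMP-hepcidin axis 0 of 23 (median −0.13) and haem and iron-sulphur cluster synthesis 0 of 30 (median 0.034). The transferrin receptor TFRC read 288, 287 and 305 CPM in HGDMEM and 306, 316 and 335 CPM in EMEM, a small step without overlap (log2FC −0.12 ± 0.11, adjusted p = 0.872). FTL, the light chain of the iron storage shell ferritin, read 6450.0, 6856 and 6867 CPM in HGDMEM and 5825, 5618 and 5769.8 CPM in EMEM (log2FC 0.23 ± 0.09, adjusted p = 0.511), and the heavy chain FTH1 overlapped (log2FC 0.11 ± 0.13, adjusted p = 0.926); both have pseudogenes. HAMP, which encodes the iron hormone hepcidin, read 34.5, 34.1 and 29.2 CPM in HGDMEM and 44.9, 47.9 and 39.97 CPM in EMEM (log2FC −0.44 ± 0.32, adjusted p = 0.821). Both SLC40A1, which exports iron (−0.53, adjusted p = 0.756) and HMOX1, which breaks down haem (0.20, adjusted p = 0.92) overlapped.

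ID3, a target of BMP signalling, was the storage list's member of smallest p at 107, 126 and 129 against 203, 175 and 216 CPM (log2FC −0.71 ± 0.18, adjusted p = 0.169), followed by SMAD4 (−0.51, adjusted p = 0.511). ID3 was called in 4 of the 16 alternatives: DESeq2, the 6 libraries alone, those 6 with the replicate block, and without LGDMEM 3. In the storage list all HGDMEM libraries were below in 6 of 23 members and above in 3, where 7.93% of all genes were below and 7.06% above. The uptake list was led by PCBP1 (0.13, adjusted p = 0.829) and SLC39A14 (0.20, adjusted p = 0.841) and the haem and iron-sulphur list by ISCU (0.46, adjusted p = 0.547) and ABCB10 (−0.66, adjusted p = 0.71). Metallothioneins and zinc handling had 0 of 11 called and a median of 0.22, with MT1A (−0.58, adjusted p = 0.389) and SLC30A10 (0.59, adjusted p = 0.572); metallothionein genes are near-identical copies, so their reads may be divided among them.

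Hepatocyte identity genes held no call in the main test, where 0.164% of all genes were called. Of 29 mature hepatocyte genes none passed the test, and 17 had a positive and 12 a negative log2 fold change (median 0.047). In 5 all HGDMEM libraries were above (7.06% of all genes) and in 2 they were below (7.93% of all genes). The 2 members of smallest p, SERPINC1 and ALB, were among the 5 above. ALB (albumin) read 10049.6, 11338 and 11414 against 8194, 8717 and 8449 CPM (log2FC 0.37 ± 0.10, adjusted p = 0.188). SERPINC1 (antithrombin) read 112, 105 and 135 against 70.6, 59.6 and 79.7 CPM (log2FC 0.75 ± 0.20, adjusted p = 0.188). Both were called in 3 of the 16 alternatives: the 6 libraries alone, those 6 with the replicate block, and without LGDMEM 3. AFP (alpha-fetoprotein) overlapped at 6714, 5330.1 and 6647 against 5932, 5645 and 6256 CPM (log2FC 0.068 ± 0.12, adjusted p = 0.956). Hepatoblast and progenitor genes had 0 of 14 called (median −0.14). In 1 all HGDMEM libraries were above (7.06% of all genes), and 4 had all HGDMEM libraries below, as 7.93% of all genes did. They included SOX4, a progenitor transcription factor, at 16.5, 24.0 and 21.8 against 31.6, 33.6 and 45.4 CPM (log2FC −0.83 ± 0.19, adjusted p = 0.0995), and the bile duct and progenitor keratin KRT19 at 153, 171 and 179 against 231, 236 and 241 CPM (log2FC −0.49 ± 0.11, adjusted p = 0.0995). KRT19 was called in 2 of the 16 alternatives and SOX4 in 1. Urea cycle and amino acid breakdown had 0 of 18 called (median 0.12), with HPD (−0.68, adjusted p = 0.53) and GOT1 (0.43, adjusted p = 0.607).

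Stress and growth lists also held no called gene, where 0.164% of all genes were called. The ATF4 amino acid response had 0 of 42 called (median −0.03), with SLC38A2 (−0.55, adjusted p = 0.511) and ATF3 (−1.06, adjusted p = 0.736). Endoplasmic reticulum chaperones had 0 of 30 (median −0.014), with CANX (−0.21, adjusted p = 0.751) and ERN1 (−0.71, adjusted p = 0.756), and cytosolic heat shock chaperones 0 of 16 (median 0.032), with HSPB1 (−0.33, adjusted p = 0.511) and HSP90AB1 (−0.18, adjusted p = 0.671). HIF targets had 0 of 26 (median −0.085), with PDK1 (−0.77, adjusted p = 0.425) and FAM162A (0.51, adjusted p = 0.441). NRF2 targets and glutathione enzymes had 0 of 28 (median −0.0043), with GSTA1 (1.58, adjusted p = 0.0763) and GCLC (−0.48, adjusted p = 0.457), and selenoproteins 0 of 19 (median 0.11), with DIO1 (1.61, adjusted p = 0.429) and GPX1 (0.35, adjusted p = 0.684). Serine, glycine and one-carbon metabolism had 0 of 16 (median 0.052), with MAT1A (0.31, adjusted p = 0.75). Cell cycle and DNA replication had 0 of 36 (median 0.00017), with NUSAP1 (−0.52, adjusted p = 0.569) and CCND1 (−0.29, adjusted p = 0.569). The mitochondrially encoded respiratory chain had 0 of 13 (median −0.03), with ND6 (1.23, adjusted p = 0.167) and CYTB (−0.28, adjusted p = 0.545). Among other cell types' markers, with none called, the smallest p values were those of CD68 (1.39, adjusted p = 0.357) and CD74 (−0.41, adjusted p = 0.511) for leukocytes, LYVE1 (−1.37, adjusted p = 0.812) and PDGFRB (−0.21, adjusted p = 0.966) for endothelial and stromal cells and SPP1 (0.30, adjusted p = 0.812), after KRT19, for bile duct cells. The part these markers played in the called genes was not tested.

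**Figure D5:**
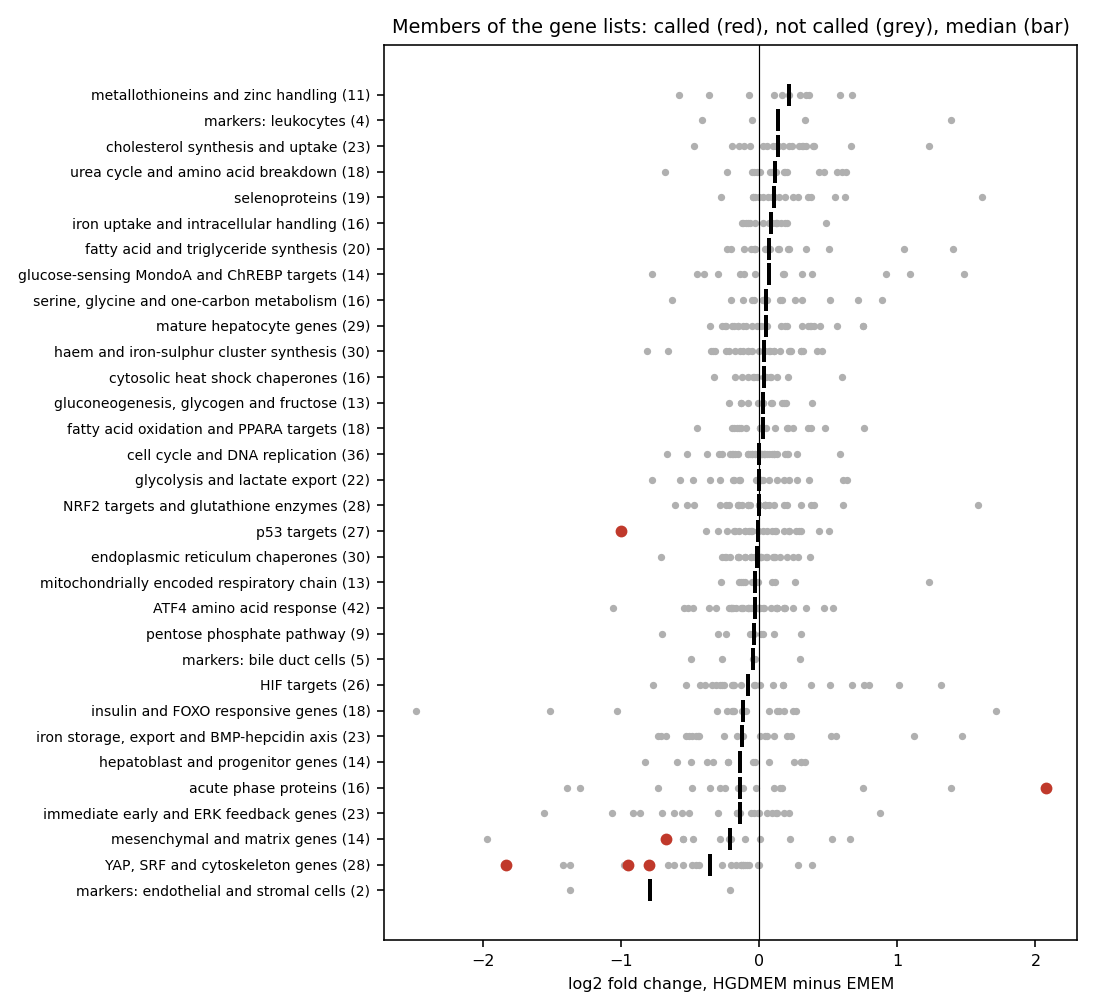
Log2 fold change (HGDMEM minus EMEM, x axis) of the members of each of the 32 gene lists, with the number measured in brackets; grey points are members not called, red points members called and black bars list medians. Called members appear in 4 lists, and the YAP, SRF and cytoskeleton list has 3 of them.

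Large differences in fold were mostly not calls. Among genes averaging 10 CPM or more, 53 differed by 2-fold or more. Of these 8 were called (0.164% of all genes) and 42 did not overlap (15% of all genes). Genes picked for a large fold are likely not to overlap, so these counts only describe them. Apart from ANGPTL8 and SAA4 the largest rises without overlap were not called. They were the cytokine receptor subunit IL17RE at 1.63 (adjusted p = 0.358), the glutathione transferase GSTA1 at 1.58, NMRAL1 at 1.34 (adjusted p = 0.184), HOXD1 at 1.27 (adjusted p = 0.324), the mitochondrial ND6 at 1.23 and HIBADH, an enzyme of valine breakdown, at 1.17 (adjusted p = 0.454). GSTA1 read 32.1, 28.5 and 45.3 CPM in HGDMEM and 13.6, 6.59 and 15.4 CPM in EMEM and was called with the replicate block on all 12 libraries (adjusted p = 0.0336). It has close paralogues, and ND6 lies opposite other mitochondrial transcripts, and whether counting used the strand is not given in the sources used here, so both are uncertain.

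Among falls without overlap NOMO2 was the largest, at 4.31, 8.61 and 15.9 CPM in HGDMEM and 97.6, 22.8 and 136 CPM in EMEM (log2FC −3.17 ± 0.83, adjusted p = 0.188). It has near-identical copies and also ranged from 26.3 to 141 CPM within LGDMEM and from 7.62 to 169 CPM within Plasmax, so its reads are uncertain. TWF2 (twinfilin 2), an actin monomer-binding protein, read 33.9, 47.8 and 37.9 CPM in HGDMEM and 179, 224 and 52.2 CPM in EMEM, with EMEM 3 far below the other EMEM libraries (log2FC −1.92 ± 0.48, adjusted p = 0.166). The scaffold SLC9A3R2 had its highest value in EMEM 2, at 17.5, 53.8 and 21.5 CPM against 14.1, 8.28 and 10.2 CPM in HGDMEM (log2FC −1.52 ± 0.36, adjusted p = 0.114). RIPPLY3, a transcriptional corepressor, read 7.502, 2.48 and 6.35 CPM in HGDMEM and 18.2, 19.4 and 15.4 CPM in EMEM (log2FC −1.71 ± 0.35, adjusted p = 0.0535). CYR61, MATN3, ANKRD1 and RBM42 completed the 8.

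Just outside the threshold 9 genes had an adjusted p from 0.05 to 0.055, against IDH1 at 0.0495 and PKDCC at 0.0472 just inside it. The 6 of smallest unadjusted p were TPM4, PLPPR1 (−1.13), the intermediate filament protein NES (nestin, −0.91), the chromatin regulator ARID5B (−1.40), the RNA-binding protein RBM42 (−1.55) and the metalloproteinase inhibitor TIMP2 (−0.68), each with an adjusted p of 0.0502, which ASRGL1 and SLC13A3 shared. All 6, picked for their small p, had every HGDMEM library below every EMEM library, as 7.93% of all genes did. RBM42 read 20.1, 25.7 and 24.1 CPM in HGDMEM and 74.0, 52.0 and 78.5 CPM in EMEM. TIMP2 read 69.4, 74.7 and 66.4 CPM in HGDMEM and 101, 124 and 111 CPM in EMEM. With the replicate block on all 12 libraries RBM42, TIMP2, ANKRD1, GSTA1, IGFBP2 and SLC6A14 were called in addition and PKDCC was not, for 23 genes in all.

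In LGDMEM the mean lay between the EMEM and HGDMEM means for 17 of the 18 called genes, SAT2 being the exception. This is a description, since the genes were chosen for the difference between EMEM and HGDMEM, and the comparisons below share the libraries of 1 of these media. CPLX2 in LGDMEM read 191, 205 and 220.1 CPM, beside EMEM, and HGDMEM was lower than LGDMEM (log2 fold change −0.91, SE 0.13, adjusted p = 0.00512). It was the single one of the 18 called between these 2 forms of DMEM, where 0.064% of all genes were. BBC3 read 130.0, 160.4 and 218 CPM in LGDMEM, with a difference of HGDMEM from LGDMEM of −0.86 that was not called (adjusted p = 0.119). SAT2 and MXRA8 read 113, 121 and 113 CPM and 54.5, 67.8 and 70.6 CPM in LGDMEM, and both were called between LGDMEM and EMEM, where 0.0731% of all genes were (log2 fold changes 1.22 and −0.79, adjusted p = 0.00126 and 0.0379). ANGPTL8 read 13.4, 27.7 and 12.9 CPM in LGDMEM and differed between the 2 forms of DMEM by 0.076 (SE 0.35). SAA4 read 19.2, 16.7 and 15.2 CPM there, MATN3 91.4, 93.6 and 178 CPM, CYR61 13.9, 32.4 and 10.6 CPM and IDH1 1541, 1383 and 1414 CPM.

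In Plasmax the levels ran both ways. MATN3 read 562, 439 and 482 CPM, above EMEM and far above HGDMEM (log2 fold change Plasmax minus HGDMEM 2.40, adjusted p = 2.05e-07). NOTUM read 2023, 1845 and 1869 CPM. ANGPTL8 read 29.5, 18.96 and 22.9 CPM, overlapping HGDMEM and above EMEM. SAA4 read 3.09, 8.15 and 5.79 CPM and SAT2 42.8, 52.7 and 41.5 CPM, both near EMEM. IDH1 read 551, 436 and 505 CPM, below all libraries of the other media. TAGLN read 53.8, 72.6 and 44.4 CPM, overlapping HGDMEM, and TGFBI 126, 101 and 114 CPM, below every HGDMEM library.

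The genes that kept their calls without 1 of the 6 libraries, in fits with fewer samples, were as follows. Whether a certain library or the smaller number of samples lost the other calls was not tested. Without HGDMEM 1 or without HGDMEM 2 CPLX2 alone of the 18 kept its call. Without HGDMEM 3 they included CPLX2, MATN3, SAA4 and TUBB6. Without EMEM 1 they included CPLX2, MATN3, TUBB6, CTDSPL and BBC3. They were, without EMEM 2, CPLX2, MATN3 and SDC4, and without EMEM 3 CPLX2, MATN3, NOTUM and ANGPTL8. No called gene changed direction in any of the 16 alternatives. In the other direction, without LGDMEM 3, a library outside the comparison that bears on the shared spread, 45 genes were called, 13 up and 32 down, and all 18 were among them.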

How the data were processed

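Per the labels, HepG2 RNA was made into QuantSeq 3′ libraries, and the deposited table gives counts per gene for 12 of them, 3 a medium. The submitters' processing notes name FastQC 0.72, cutadapt 1.16, STAR 2.7.5b, featureCounts 1.6.3, limma 3.40.6 and the builds hg19 and GRCh37, without their role or order. The authors deposited whole-number counts with no normalization stated. Low rows had been removed before deposit by a rule not given in the sources used here (no row had a third-ranked CPM under 2.51), so totals are not full depth. Of 11546 rows 601 without a symbol were left out (2.92% to 3.31% of counts in the 6 libraries compared). Columns of other samples numbered 0.

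Computed here with edgeR 4.0.16 in R 4.3.3 were TMM scaling, CPM on the scaled library sizes, and the quasi-likelihood test over all 12 libraries with medium as the single factor, adjusted by Benjamini-Hochberg at 0.05. The edgeR low-count filter removed 0 genes. The SE was taken from the fold change and its F statistic (log2FC over root F). The fit was also run on simulated counts drawn without a replicate effect. The outcome is not given here, so that run vouches for none of the calls. Libraries of a medium differed by more than counting noise (chi-square per degree of freedom 7.28 to 11.8).

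Replicate numbers are shared between the media. Deviations from the group means correlated between same-numbered libraries at 0.186, 0.11 and 0.124 over the 4366 genes averaging more than 5 in log2 CPM (0.128, 0.0669 and 0.048 over all genes). All 3 exceeded the 0.1 set for pairing, so fits with the replicate block are given as alternatives. The pairing comes from the data and the shared numbers, and the fit without a block remains the main one. The SE and p values of the main fit therefore do not use the pairing.

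The 32 gene lists (721 entries, 623 measured), the rule for named genes and the comparison itself were chosen with earlier results of these data known. The rule takes every called gene, the 8 largest rises and falls without overlap among genes averaging 10 CPM or more, the 6 genes next to the threshold, the 2 members of smallest p in each list, and TXNIP, ARRDC4, TFRC, FTH1, FTL, HAMP, SLC40A1, HMOX1, ALB and AFP. Some genes that the rule takes, 2 of the called ones among them, are not reported here. ACTG1 and the further list members named were chosen after their values were seen. Lists are described by counts and medians without a test. Alternatives were other scalings, a filter keeping the 9380 genes that average 5 CPM or more, limma voom (limma 3.58.1), DESeq2 1.42.0, the 6 libraries alone, the replicate block, rows without a symbol kept, and leaving out single libraries. Promoter sequences are from RefSeq (GRCh38.p14) and were matched by symbol, since the files give no coordinates.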

Additional observations from a re-analysis of the deposited data

How the results depend on the processing

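The 18 calls (4 up, 14 down) became 68 with DESeq2 (17 up, 51 down), 43 with the fit to the 6 libraries alone (15 up, 28 down), 45 without LGDMEM 3 (13 up, 32 down) and 11 with rows lacking a symbol kept (8 of them down). Scaling to library size alone gave 13, with 9 down. Leaving out 1 of the 6 libraries gave 1 to 7 calls, 0 to 1 up and 1 to 7 down, in a fit with fewer samples. The replicate block, which follows the pairing, gave 23 calls (6 up, 17 down) on all 12 libraries and 73 (24 up, 49 down) on the 6 libraries alone. On all 12 libraries 17 of the 18 genes were among the 23, and on the 6 libraries all 18 were among the 73. PKDCC apart, the block on all 12 libraries changed no call of the 18. RLE scaling kept the 18 and the stricter filter gave 20 with all 18 among them, while limma voom gave 21 with 15 of them. In all, 84 genes were called in an alternative and not in the fit reported.

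Of 1582 values of named genes under the 16 alternatives 1404 kept direction and side of the threshold, 104 lost and 71 gained a call, and 3 changed sign. Those 3 were not called genes: PDGFRB ran from −0.70 to 0.065 over the 6 left-out libraries, TXNIP from −0.12 to 0.62 and HMOX1 from −0.14 to 0.44. The causes were not tested. The 3 libraries a medium and the deposited depth limit what could be called among low genes.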
